A study of Mus musculus with 6 samples.

Results

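The genes described here are 9 nuclear genes for enzymes of the citric acid cycle: Cs, Idh3a, Idh3b, Idh3g, Idh2, Ogdh, Dlst, Fh1 and Mdh2. They were taken by name, without use of their values, and are 9 of the 25102 genes in the table. Other enzymes of the cycle, such as succinyl-CoA ligase and succinate dehydrogenase, are not among them. All 9 passed the filter on low values, which kept the 8528 genes averaging 1 FPKM or more. Expression was measured by poly(A) RNA sequencing of liver from male C57BL/6J mice, which were 2 weeks old at the start. The labels give 2 groups. The 3 DEN+CCl4 livers came from mice given 1 intraperitoneal injection of diethylnitrosamine (DEN, a carcinogen activated in hepatocytes) at 1 mg/kg, and from about 6 weeks later carbon tetrachloride (CCl4, a hepatocyte toxin) at 0.2 mL/kg, injected 2 times per week for at most 14 weeks. For the 3 control livers the labels name no injection, vehicle or genetic change. The labels call the treated liver a model of hepatocellular carcinoma, and do not say whether tumour or surrounding liver was taken. They give each library a replicate number and name no animal, so p-values measure the spread between these libraries, which may be technical.

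The citric acid cycle runs in the mitochondrial matrix and oxidises acetyl-CoA to carbon dioxide, passing the electrons to NADH and FADH2 for the respiratory chain. In liver it also supplies carbon for glucose, amino acid and lipid synthesis and takes carbon back from amino acids. Citrate synthase (Cs) opens the cycle by joining acetyl-CoA to oxaloacetate. The NAD-dependent isocitrate dehydrogenase is built from a catalytic subunit (Idh3a) and subunits with structural and regulatory roles (Idh3b, Idh3g), whereas Idh2 encodes a separate NADP-dependent enzyme for the same step. Ogdh and Dlst encode the first and second components of the 2-oxoglutarate dehydrogenase complex. Fumarase (Fh1) hydrates fumarate to malate, and malate dehydrogenase (Mdh2) oxidises malate to oxaloacetate.

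The values are FPKM (fragment counts divided by gene length and by the library's total). DEN+CCl4 replicate 3 stood apart from the other 5 libraries. Its summed FPKM was 85.0% mitochondrially encoded RNA together with 7 nuclear gene copies, against 38.1% to 62.1% elsewhere. Its median tested gene was at 1.19 FPKM, against 3.43 to 4.46 FPKM elsewhere. The differences are therefore given as deposited and again after median-ratio scaling, in which each library is divided by the median, over tested genes, of its ratio to the geometric mean of all 6. Over all tested genes the log2 fold changes had a median of -0.27 as deposited and 0.01 after this scaling. The table holds no counts, so read depth is unknown and counting intervals are left out.

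None of the 9 genes differed between the groups by limma's test. After scaling, the cycle genes other than Dlst were all below their control means in DEN+CCl4 replicates 2 and 3, while in replicate 1 most were close to them. As deposited, 0 of the 9 passed in either direction (smallest limma adjusted p = 0.811), and 0 reached an unadjusted p under 0.05. Of all tested genes 1.48% passed, 0.833% higher and 0.645% lower, while before adjustment 2.53% were higher and 5.07% lower at the same threshold. With the libraries scaled, 0 of 9 passed (smallest limma adjusted p = 0.453), with 1 gene, Idh2, at an unadjusted p under 0.05. On that scale 0% of all tested genes passed, and 5.49% were higher and 5.23% lower before adjustment. The 9 log2 fold changes had a median of -0.84 as deposited against -0.27 for all tested genes, and of -0.44 against 0.01 after scaling. All 9 were negative as deposited, as were 74.4% of all tested genes. After scaling 8 of 9 were negative, against 48.6% of all tested genes. In whole liver, fewer cells of a type and less RNA per cell cannot be told apart.

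The size of this median rested on which DEN+CCl4 libraries entered the fit. It was -0.20 without DEN+CCl4 replicate 3 (0.12 for all tested genes) and -1.38 without replicate 1 (-0.43 for all tested genes). After median-ratio scaling it was -0.33 without replicate 3 and -0.68 without replicate 1. The position of each gene among the tested genes of its own library does not depend on any scaling. The median percentile of the 9 genes was 83.1, 80.7 and 84.0 in control replicates 1, 2 and 3. In DEN+CCl4 replicates 1, 2 and 3 it was 81.5, 73.9 and 72.9.

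DEN+CCl4 replicates 1, 2 and 3 had 2, 6 and 9 of the 9 genes under every control as deposited, against 11.9%, 22.7% and 83.9% of all tested genes. After scaling the counts were 2, 8 and 6 of 9, against 18.2%, 31.4% and 37.1%. DEN+CCl4 replicate 2, whose deposited scale resembles that of the controls, thus placed most of the 9 genes below every control on both scales. For Idh2 and Idh3g all 3 DEN+CCl4 values were below all 3 controls on both scales. Among all tested genes 5.35% stood apart in this way as deposited and 6.52% after scaling, and 3.01% and 7.63% stood apart in the higher direction. The groups of the other 7 cycle genes overlapped on both scales.

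**Figure D1:**
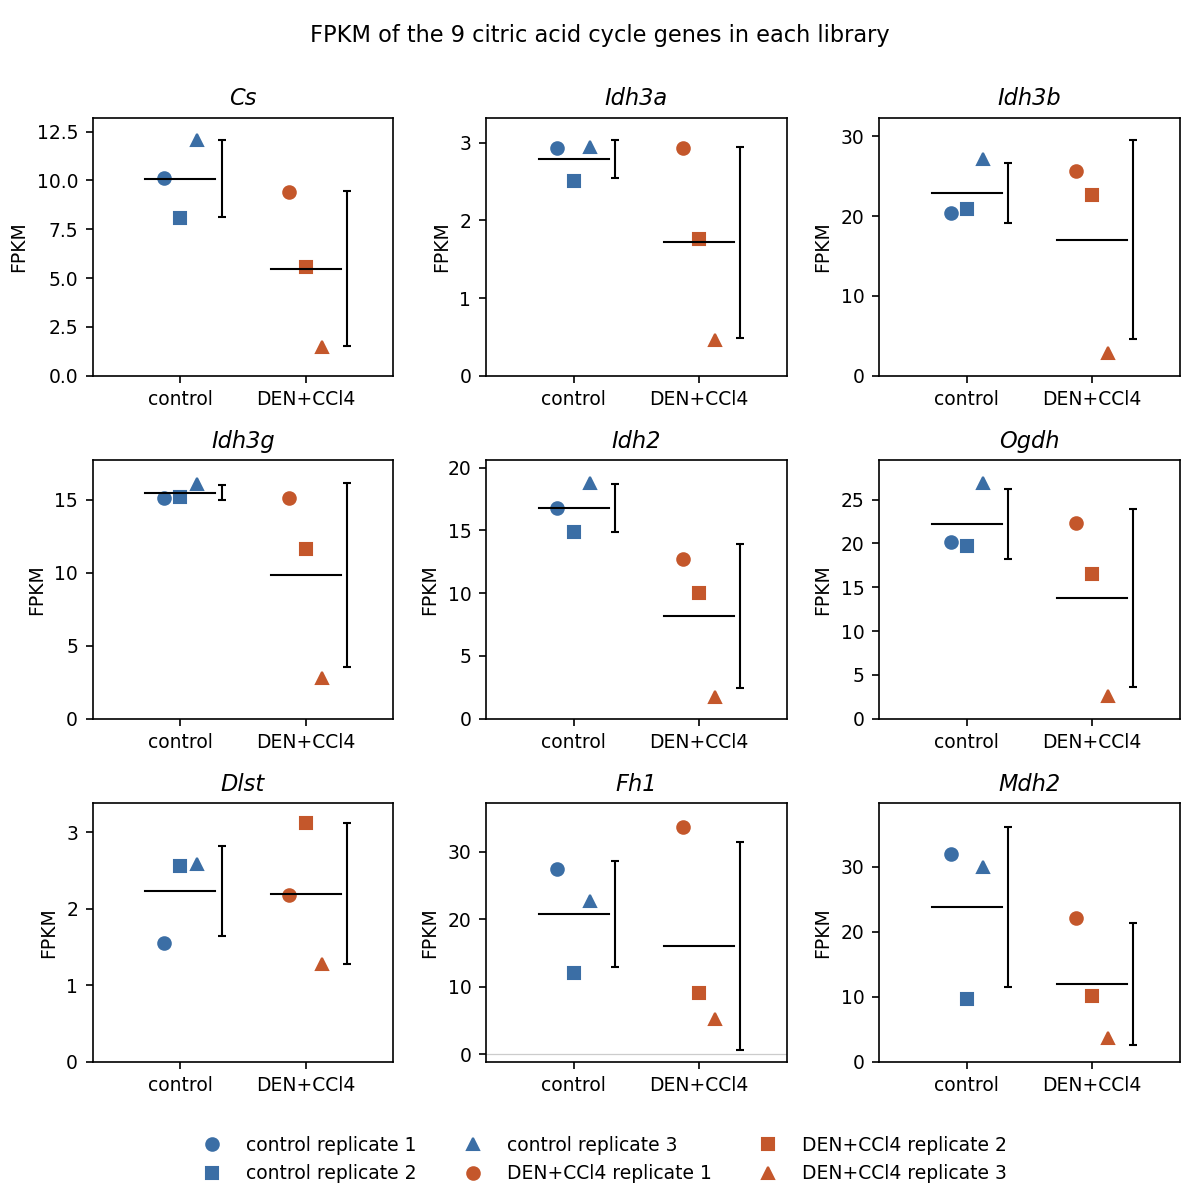
FPKM as deposited (y axis, from 0) of the 9 genes in the 3 control and 3 DEN+CCl4 libraries; points are libraries, black lines are group means and bars are 1 SD. DEN+CCl4 replicate 3 (orange triangle) is the lowest point for all 9 genes. DEN+CCl4 replicate 1 (orange circle) lies among or near the controls for most.

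The 9 genes lie on 9 chromosomes, and their annotated exons add up to between 2588 bases (Idh2) and 9559 bases (Dlst). RefSeq promoter windows of 300 bases (GRCm38.p6, 250 before to 50 after the start) were found for 8 of the 9 by symbol. Idh3a had no entry. Each motif was searched on both strands. A gene was counted if any of its windows held the letters, and Ogdh has 6 windows, whereas the shares are per window. The SP1 letters GGGCGG were in a window of 6 of the 8 genes (Cs, Idh2, Ogdh, Dlst, Fh1 and Mdh2), against 35.7% of all 32851 windows and 62.0% of the windows of tested genes. The ETS-type letters CCGGAAG, read by GABPA, were in 3 (Idh3b, Idh3g and Dlst; 8.86% and 18.8%). The NRF1 core TGCGCA was in Ogdh and Mdh2 (7.76% and 13.9%). The estrogen related receptor letters AAGGTCA were in 1 of the 6 windows of Ogdh (4.72% and 3.58%). A longer NRF1 motif, whose letters do not include this core (0.971% of all windows), and a YY1 motif (0.633%) were in none of the 8.

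A further motif, the palindrome bound by BANP with TCGCGA at its centre, was searched after the sequences were seen. It occurred 3 times in the window of Mdh2, in 0.466% of all windows at least once, and at least 3 times in 2 windows of all. The NRF1 core lies within neither the SP1 nor the ETS letters, and a match describes the sequence only. The stretches before the start are shown for Cs, which opens the cycle, for Idh3g and Mdh2, the steadiest and the least steady of the genes among controls, and for Dlst, whose difference lay nearest 0 as deposited. Each stops before the first base of the gene in both RefSeq and GENCODE M21, so that of Mdh2 is short and holds 1 of its 3 palindromes. Capitals mark GGGCGG in Cs and Dlst on either strand, CCGGAAG in Idh3g and the central TCGCGA of the palindrome in Mdh2. The regions are chr10:128337477-128337726 (plus strand) for Cs, chrX:73786898-73787147 (minus strand) for Idh3g, chr5:135778399-135778479 (plus strand) for Mdh2 and chr12:85110583-85110832 (plus strand) for Dlst.
Cs: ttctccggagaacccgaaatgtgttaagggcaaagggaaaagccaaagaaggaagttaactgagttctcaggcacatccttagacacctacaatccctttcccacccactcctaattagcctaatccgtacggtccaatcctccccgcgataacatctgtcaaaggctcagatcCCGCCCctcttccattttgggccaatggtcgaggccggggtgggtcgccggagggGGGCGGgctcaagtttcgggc
Idh3g: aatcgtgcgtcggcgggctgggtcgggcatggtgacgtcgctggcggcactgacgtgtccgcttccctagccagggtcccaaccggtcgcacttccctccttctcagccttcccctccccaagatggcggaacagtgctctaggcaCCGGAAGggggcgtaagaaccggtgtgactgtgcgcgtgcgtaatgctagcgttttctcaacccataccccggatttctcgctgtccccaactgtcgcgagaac
Mdh2: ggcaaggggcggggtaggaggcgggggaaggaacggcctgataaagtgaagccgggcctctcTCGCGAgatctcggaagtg
Dlst: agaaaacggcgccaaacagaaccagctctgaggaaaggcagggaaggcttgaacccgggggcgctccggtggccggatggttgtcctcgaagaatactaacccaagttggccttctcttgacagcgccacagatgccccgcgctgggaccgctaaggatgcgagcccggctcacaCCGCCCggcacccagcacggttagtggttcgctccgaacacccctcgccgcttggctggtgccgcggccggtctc

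Cs, on chromosome 10 (128337734 to 128362479, GRCm38, plus strand), read 10.12, 8.10 and 12.05 FPKM in control replicates 1, 2 and 3. In the DEN+CCl4 livers, in the same order of replicates, it read 9.40, 5.55 and 1.46 FPKM. Replicate 1 of the DEN+CCl4 group lay between the controls, and the other 2 lay below them. The group means were 10.1 ± 1.98 and 5.47 ± 3.97 FPKM (SD, n = 3), and the log2 fold change was -0.99 ± 0.67 (SE; limma adjusted p = 0.921). After scaling the log2 fold change was -0.64 ± 0.31 (limma adjusted p = 0.495). Scaled levels ran from 7.00 to 9.57 FPKM in controls and were 7.36, 4.05 and 4.10 FPKM in the 3 DEN+CCl4 livers. Replicates 2 and 3 were thus at nearly the same scaled level. Without DEN+CCl4 replicate 3 the log2 fold change as deposited was -0.41.

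The 3 subunit genes of the NAD-dependent isocitrate dehydrogenase differed widely in level. Idh3a (chromosome 9, 54586334 to 54604661), the catalytic subunit, was among the lowest of the 9, at 2.93, 2.51 and 2.94 FPKM in the control livers, against 2.93, 1.76 and 0.46 FPKM in the DEN+CCl4 livers. DEN+CCl4 replicate 1 equalled the first control, and the others were below all controls. Idh3g (chromosome X, 73778963 to 73786897) read 15.11, 15.21 and 16.05 FPKM in the control livers, against 15.10, 11.60 and 2.81 FPKM in the DEN+CCl4 livers. Its groups did not overlap, by a margin of 0.01 FPKM as deposited. Idh3g was also the steadiest of the 9 among controls, with a highest value 1.06 times the lowest. Idh3b (chromosome 2, 130279309 to 130284547) read 20.39, 20.95 and 27.18 FPKM in the control livers, against 25.67, 22.69 and 2.82 FPKM in the DEN+CCl4 livers. Only DEN+CCl4 replicate 3 lay below the controls as deposited. Its annotated exons overlap those of Nop56 on the opposite strand by 5 bases.

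On the log2 scale Idh3a differed by -0.59 ± 0.49, Idh3g by -0.84 ± 0.75 and Idh3b by -0.82 ± 0.82 (SE; limma adjusted p = 0.987, 0.996 and 0.996). After scaling these were -0.37 ± 0.23, -0.44 ± 0.29 and -0.42 ± 0.40 (limma adjusted p = 0.590, 0.597 and 0.731). Without DEN+CCl4 replicate 3 the difference as deposited was -0.20 for Idh3a, -0.21 for Idh3g and 0.088, of the opposite sign, for Idh3b. Without DEN+CCl4 replicate 1 it was -0.92 for Idh3a and -1.31 for Idh3b.

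Idh2, the NADP-dependent mitochondrial enzyme (chromosome 7, 80094846 to 80115392), had the largest difference of the 9 on both scales. It read 16.74, 14.88 and 18.73 FPKM in the control livers, against 12.73, 10.04 and 1.72 FPKM in the DEN+CCl4 livers. All 3 DEN+CCl4 values were below all 3 controls. The means were 16.8 ± 1.93 and 8.16 ± 5.74 FPKM (SD, n = 3), and the log2 fold change was -1.25 with a 95% interval of -2.72 to 0.22 (limma adjusted p = 0.811). After scaling the log2 fold change was -0.89 with a 95% interval of -1.64 to -0.14 (limma unadjusted p = 0.0260, adjusted p = 0.453). Without DEN+CCl4 replicate 3 it was -0.52 as deposited and -0.65 scaled. Its scaled values went from 12.9 to 14.9 FPKM in controls to 9.97, 7.32 and 4.83 FPKM in the 3 DEN+CCl4 livers. An exact two-sided permutation test gave p = 0.1 for Idh2 and for Idh3g on either scale, the smallest p that 3 against 3 libraries allow.

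The 2 genes of the 2-oxoglutarate dehydrogenase complex had unlike values. Ogdh (chromosome 11, 6291633 to 6356642), the decarboxylating component, read 20.18, 19.73 and 26.84 FPKM in the control livers, against 22.29, 16.52 and 2.58 FPKM in the DEN+CCl4 livers. DEN+CCl4 replicate 1 lay within the controls and the other 2 below them. Dlst (chromosome 12, 85110833 to 85134845), the succinyltransferase core, read 1.55, 2.55 and 2.58 FPKM in the control livers, against 2.18, 3.12 and 1.28 FPKM in the DEN+CCl4 livers. Replicate 2 of the DEN+CCl4 group was the highest of its 6 values. Ogdh differed by -1.02 ± 0.81 on the log2 scale (SE; limma adjusted p = 0.982) and by -0.63 ± 0.37 after scaling (0.568), and as deposited by -0.19 without DEN+CCl4 replicate 3 and by -1.54 without replicate 1. Dlst differed by -0.039 ± 0.49 (limma adjusted p = 0.999) and after scaling by 0.28 ± 0.27 (0.743), with a change of sign. After scaling it was the only one of the 9 with a positive difference, and it stood at 3.59 FPKM in DEN+CCl4 replicate 3 against 1.33 to 2.21 FPKM in controls.

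Fh1 and Mdh2, the enzymes of the last steps of the cycle, varied most among the controls. Fh1 (chromosome 1, 175600374 to 175625635) read 27.46, 12.11 and 22.70 FPKM in the control livers, against 33.71, 9.12 and 5.23 FPKM in the DEN+CCl4 livers. DEN+CCl4 replicate 1 held its highest value of all 6 libraries. Mdh2 (chromosome 5, 135778480 to 135790398) read 31.97, 9.63 and 29.92 FPKM in the control livers, against 22.14, 10.19 and 3.59 FPKM in the DEN+CCl4 livers. Control replicate 2 stood low for both genes. Its Mdh2 value was below that of DEN+CCl4 replicates 1 and 2. The highest control was 3.32 times the lowest for Mdh2 and 2.27 times for Fh1, against 1.06 to 1.66 times for the other 7 genes. The Mdh2 spread was wider than that of 91.9% of all tested genes and the Fh1 spread wider than that of 77.3%.

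The log2 difference between groups was -0.67 ± 0.81 for Fh1 and -1.06 ± 0.80 for Mdh2 (SE; limma adjusted p = 0.996 and 0.959). After scaling it was -0.23 ± 0.53 and -0.65 ± 0.51 (limma adjusted p = 0.892 and 0.670). With the replicate number as a block in limma, the SEs were 0.30 and 0.32 after scaling, but 0.94 and 0.92 as deposited. Whether libraries of the same number shared a batch was not tested. Without control replicate 2 the difference of Mdh2 as deposited was -1.59, against -1.06 with it. Without DEN+CCl4 replicate 3 it was -0.46 for Mdh2 and -0.14 for Fh1, and without DEN+CCl4 replicate 1 it was -1.63 and -1.38. Control replicate 2 also had the largest share of mitochondrial transcripts and their copies among the controls (62.1%, against 38.1% and 46.5%), and the part of this in its Fh1 and Mdh2 values was not tested.

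**Figure D2:**
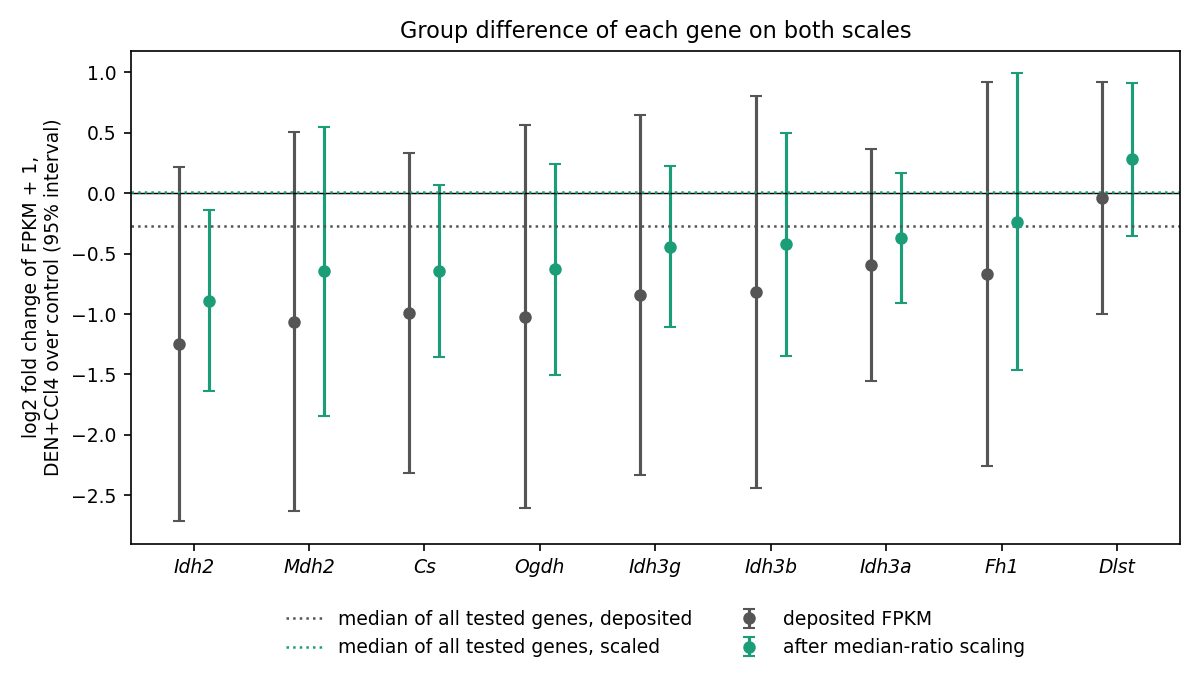
Log2 fold change of FPKM + 1, DEN+CCl4 over control (y axis), for each of the 9 genes as deposited (grey) and after median-ratio scaling (green), with limma's 95% intervals; dotted lines are the medians of all tested genes, -0.27 and 0.01. The interval leaves out 0 for Idh2 after scaling and includes 0 in every other case, and scaling moves every point up.

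**Figure D3:**
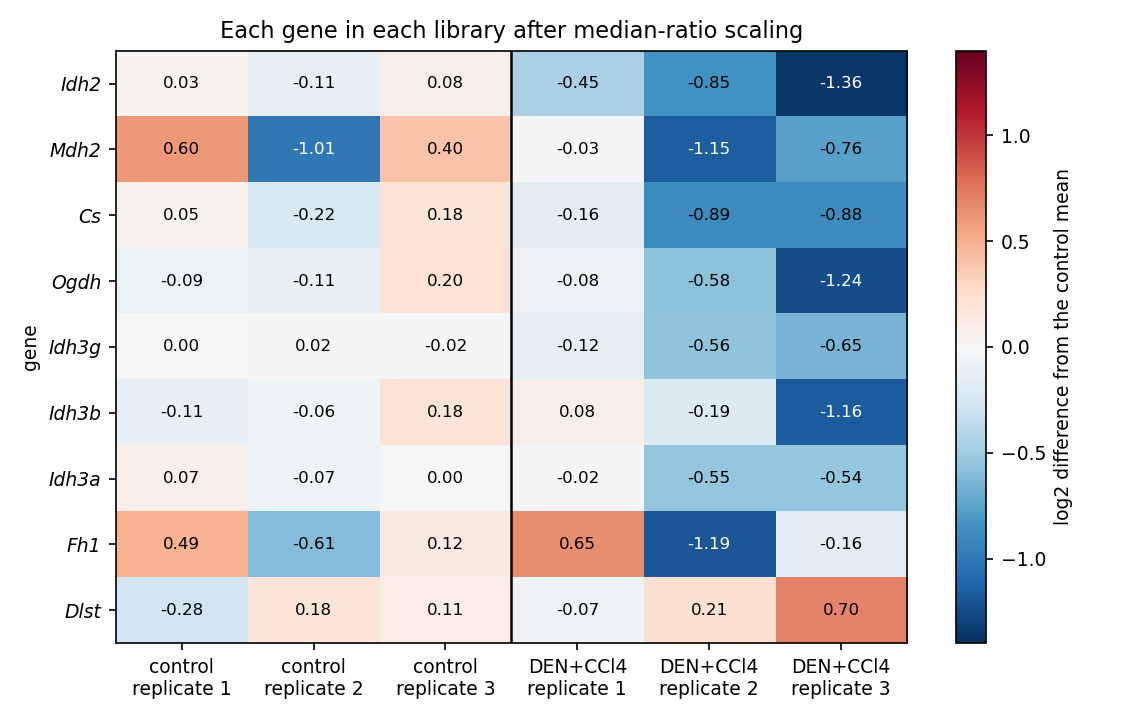
Log2(FPKM + 1) after median-ratio scaling of each gene in each library, minus that gene's control mean (colour and printed number, columns are libraries). DEN+CCl4 replicates 2 and 3 are negative for all genes except Dlst, replicate 1 is farthest from 0 for Fh1 (0.65) and Idh2 (-0.45), and control replicate 2 is at -1.01 for Mdh2 and -0.61 for Fh1.

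The scaled profiles in that map can be compared library by library. The median offset of the 9 genes from their control means was -0.066, -0.58 and -0.76 in DEN+CCl4 replicates 1, 2 and 3. In controls it ran from -0.11 to 0.12. Idh3a and Idh3g had the most similar pair of profiles (root mean square difference 0.079 on the log2 scale over the 6 libraries). Dlst and Mdh2 had the least similar pair (1.02). Idh3b and Ogdh, close to each other at 0.18, had offsets of 0.079 and -0.076 in DEN+CCl4 replicate 1 and of -1.16 and -1.24 in replicate 3. Fh1 was farther below its control mean in DEN+CCl4 replicate 2 (-1.19) than in replicate 3 (-0.16), as was Mdh2 (-1.15 and -0.76), while Cs and Idh3a were nearly level in the 2 libraries.

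FPKM is divided by gene length, so levels were set between genes. The annotation behind those lengths was not given, and evenness of coverage along the genes was not tested. In controls the order was Mdh2 (23.8 ± 12.3 FPKM), Idh3b (22.8 ± 3.77), Ogdh (22.3 ± 3.98), Fh1 (20.8 ± 7.86), Idh2 (16.8 ± 1.93), Idh3g (15.5 ± 0.516), Cs (10.1 ± 1.98), Idh3a (2.79 ± 0.245) and Dlst (2.23 ± 0.586; SD, n = 3 for each). The ranges of neighbours overlapped everywhere except between Idh3g and Cs and between Cs and Idh3a. Idh3b was nevertheless above Ogdh in all 3 controls. Idh3a and Dlst were well below the genes of their partner subunits in all 6 libraries.

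Plain ratios of 2 genes within a library are not moved by that library's scale, and 10 were computed. They were tested as differences of log2(FPKM + 1), where the pseudocount draws ratios with a low gene towards 0 in a library of low values. Idh3g to Idh3a was 5.16, 6.06 and 5.46 in the control livers, against 5.15, 6.59 and 6.11 in the DEN+CCl4 livers. The plain ratio of these 2 subunit genes thus varied little over the 6 libraries, DEN+CCl4 replicate 3 included. Its log2 difference was -0.25 with the pseudocount of 1 and 0.086 with 0.01 (exact permutation p = 0.4 and 0.7). Idh3b to Idh3a was 6.96, 8.35 and 9.24 in the control livers, against 8.76, 12.9 and 6.13 in the DEN+CCl4 livers. The highest and the lowest of its 6 values both lay in the DEN+CCl4 group.

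Dlst to Ogdh was 0.0768, 0.129 and 0.0961 in the control livers, against 0.0978, 0.189 and 0.496 in the DEN+CCl4 livers. Replicates 2 and 3 of the DEN+CCl4 group exceeded every control, and replicate 1 did not. On the log2 scale with the pseudocount this ratio differed by 0.98 (-2.85 ± 0.27 in controls and -1.87 ± 1.13 in DEN+CCl4 liver, SD, n = 3; exact permutation p = 0.2, adjusted over the 10 ratios 0.5). Idh2 to Idh3a, which sets the NADP-dependent against the NAD-dependent enzyme, was 5.71, 5.93 and 6.37 in the control livers, against 4.34, 5.70 and 3.74 in the DEN+CCl4 livers. Its groups did not overlap, by a narrow margin for DEN+CCl4 replicate 2. The log2 difference was -0.66 (exact permutation p = 0.1, the smallest possible; adjusted over the 10 ratios 0.5), and -0.41 with a pseudocount of 0.01. Without DEN+CCl4 replicate 3 the log2 difference was 0.37 for Dlst to Ogdh and -0.32 for Idh2 to Idh3a.

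Mdh2 was also set against Mdh1, the cytosolic malate dehydrogenase, and the ratio was steady in controls at 0.727, 0.718 and 0.708. It was 0.774, 1.08 and 0.759 in DEN+CCl4 replicates 1, 2 and 3, above every control. The log2 difference was 0.26 (-0.46 ± 0.024 in controls and -0.19 ± 0.25 in DEN+CCl4 liver, SD, n = 3; exact permutation p = 0.1, adjusted 0.5), and 0.12 without DEN+CCl4 replicate 2. Mdh1 itself read 43.97, 13.42 and 42.25 FPKM in the control livers, against 28.61, 9.45 and 4.73 FPKM in the DEN+CCl4 livers, with the same low value in control replicate 2 as Mdh2. Idh2 to Idh1, its cytosolic and peroxisomal counterpart, was 0.300, 0.491 and 0.348 in the control livers, against 0.292, 0.398 and 0.306 in the DEN+CCl4 livers. The other ratios overlapped between groups as well, with adjusted exact permutation p of 0.5 to 0.9.

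**Figure D4:**
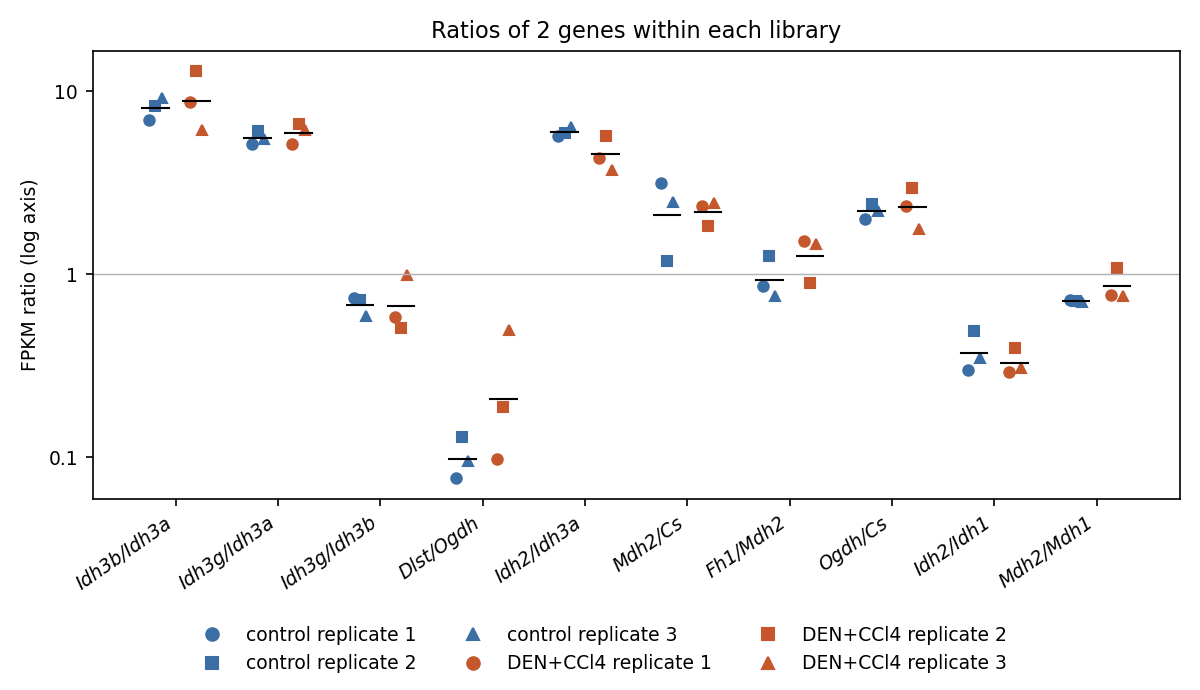
Plain FPKM ratio of 2 genes within each library (log axis) for the 10 ratios; points are libraries and black lines are geometric means of the 3 libraries of a group. Idh3g/Idh3a stays between 5.15 and 6.59 in all 6 libraries, Dlst/Ogdh reaches 0.496 in DEN+CCl4 replicate 3, and Mdh2/Mdh1 is above all controls in the 3 DEN+CCl4 libraries.

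Among 3314 other genes averaging 5 FPKM or more, the 5 whose scaled profile over the 6 libraries was most like the mean of the 9 were Oxa1l, an insertase of the mitochondrial inner membrane, Gatc, Minos1, Ndufa10, a complex I subunit gene, and Fis1. Their root mean square difference from that mean was 0.052, 0.085, 0.088, 0.089 and 0.095 on the log2 scale. Oxa1l, the nearest, read 10.39, 7.93 and 11.36 FPKM in the control livers, against 10.19, 7.46 and 1.71 FPKM in the DEN+CCl4 livers. The nearest genes of Idh2 and of Mdh2 alone were looked up after the values were seen. For Idh2 the nearest was Aco1 (0.087), at 14.96, 12.99 and 16.90 FPKM in the control livers, against 13.23, 8.84 and 1.56 FPKM in the DEN+CCl4 livers. For Mdh2 it was Nedd8, a ubiquitin-like protein gene (0.12), at 70.53, 18.32 and 58.88 FPKM in the control livers, against 43.52, 24.67 and 8.05 FPKM in the DEN+CCl4 livers. It shared the low value of control replicate 2.

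The remaining steps of the cycle gave no call either. Of the 10 genes listed for them, which include those of succinyl-CoA ligase and succinate dehydrogenase, 0 rose and 0 fell, and 0 reached an unadjusted p under 0.05 on either scale. Their median log2 fold change was -0.99 as deposited and -0.60 after scaling. All 10 were negative on both, against 74.4% and 48.6% of all tested genes. Sdhb, the iron-sulphur subunit of succinate dehydrogenase, was at 48.0 ± 16.4 and 29.0 ± 27.9 FPKM (SD, n = 3), a log2 difference of -1.18 (limma adjusted p = 0.973) and of -0.74 after scaling.

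Genes that feed or drain the cycle were compared as 6 further lists, with 0 genes called in either direction in any of them. Of the pyruvate dehydrogenase list 9 of 13 were tested, with a median of -0.70 as deposited and -0.47 after scaling. Pdk2, a kinase that inactivates pyruvate dehydrogenase, was at 45.1 ± 7.23 FPKM in controls (SD, n = 3), and the DEN+CCl4 livers read 47.85, 21.33 and 3.15 FPKM (a log2 difference of -1.47, with limma adjusted p = 0.833, and -1.06 after scaling). Pdhb, for the E1 beta subunit of that complex, was at 11.7 ± 2.26 and 8.59 ± 5.42 FPKM, with a log2 difference of -0.62 as deposited and -0.24 after scaling. The 6 tested cytosolic and isoform counterparts had a median of -1.19 (-0.79 after scaling), with Idh1 at 46.6 ± 14.1 and 24.8 ± 19.0 FPKM (log2 difference -1.22 as deposited and -0.78 after scaling). The list for anaplerosis (refilling of the cycle) also holds genes that drain it, such as Pck1. Of its 13 tested genes 12 had a negative log2 fold change as deposited (74.4% of all tested genes) and 11 after scaling (48.6%). Their medians were -1.06 and -0.61. Among them Gpt, alanine aminotransferase, read 117.96, 158.20 and 165.18 FPKM in the control livers, against 113.19, 81.98 and 15.28 FPKM in the DEN+CCl4 livers, with no overlap (a log2 difference of -1.45, with limma adjusted p = 0.936, and -0.99 after scaling). Pck1, of gluconeogenesis, differed by -1.91 (limma adjusted p = 0.737) and by -1.44 after scaling.

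The 7 genes of fumarate and 2-oxoglutarate side reactions had a median of -1.22 (-0.78 after scaling). Asl, the urea cycle enzyme that releases fumarate, read 107.81, 121.71 and 124.66 FPKM in the control livers, against 134.87, 31.38 and 6.43 FPKM in the DEN+CCl4 livers (a log2 difference of -1.89, with limma adjusted p = 0.698, and -1.45 after scaling). Its first DEN+CCl4 library exceeded all controls while the others were far below. Fah, of tyrosine breakdown, was at 238.8 ± 53.0 and 127.0 ± 104.6 FPKM (log2 difference -1.24 as deposited and -0.76 after scaling). The 5 tested carriers had a median of -0.77 (-0.36 after scaling). The dicarboxylate carrier gene Slc25a10 read 36.32, 53.74 and 63.43 FPKM in the control livers, against 32.32, 25.40 and 4.73 FPKM in the DEN+CCl4 livers, without overlap (a log2 difference of -1.57, with limma adjusted p = 0.776, and -1.14 after scaling). Slc25a13, an aspartate and glutamate carrier gene singled out after the values were seen because its adjusted p was the lowest of these lists, read 2.31, 10.12 and 12.82 FPKM in the control livers, against 2.26, 1.47 and 0.53 FPKM in the DEN+CCl4 livers (limma adjusted p = 0.0856, and 0.453 after scaling). The citrate carrier gene Slc25a1 was at 53.2 ± 13.0 and 38.3 ± 21.2 FPKM (log2 difference -0.64 as deposited and -0.18 after scaling). Of 10 tested regulators of mitochondrial genes the median was -0.42 as deposited and -0.094 after scaling, near that of all genes. Hnf4a, a hepatocyte transcription factor, was at 78.1 ± 19.8 and 80.8 ± 51.7 FPKM (log2 fold change -0.23 as deposited and 0.23 after scaling). The mitochondrial protease gene Lonp1 was at 22.4 ± 2.73 and 16.5 ± 6.85 FPKM (-0.51 and -0.055).

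The labelled tissue and its other cell types were checked by marker lists. The 8 hepatocyte markers, Alb among them, were above 0 in every library. Their summed level after scaling was 25035 to 34994 FPKM in controls and 21857 to 45344 FPKM in DEN+CCl4 liver, and most of it was Alb and Apoa1. The single markers were unlike each other: after scaling the log2 difference was 0.08 for Alb, 0.43 for Apoa1, 0.60 for Apob and 0.23 for Hnf4a, but -1.27 for Ttr, -1.89 for Tat, -1.10 for Cps1 and -1.75 for Ass1. Cps1, a urea cycle enzyme of hepatocyte mitochondria, read 119.53, 121.13 and 121.44 FPKM in the control livers, against 111.39, 43.90 and 12.88 FPKM in the DEN+CCl4 livers. Ass1, of the same cycle, read 629.59, 439.40 and 663.76 FPKM in the control livers, against 660.00, 96.32 and 27.39 FPKM in the DEN+CCl4 livers. These were low in DEN+CCl4 replicates 2 and 3, as most of the cycle genes were, and 0 of the 8 hepatocyte markers passed limma's test on either scale. The summed 7 stellate and fibroblast markers ran from 7.39 to 10.5 FPKM in controls and from 15.7 to 39.0 FPKM in DEN+CCl4 liver after scaling. Single genes of this list were unlike each other as deposited. Col1a1, Col3a1 and Acta2 were higher without overlap on both scales. As deposited Lrat was lower (0.31, 0.35 and 0.15 FPKM, against 0.58, 0.46 and 0.40 FPKM in controls), and Dcn, Pdgfrb and Des overlapped. After scaling Pdgfrb and Des were higher without overlap (log2 difference 0.61 and 0.46), and Dcn still overlapped (0.42). Lrat was below the filter and was not fitted. The 5 cholangiocyte markers ran from 7.31 to 14.1 and from 11.4 to 71.3 FPKM, with Epcam at 0 in at least 1 library. Most of this sum was Spp1 in every library, at 24.19 of 25.41 FPKM as deposited in DEN+CCl4 replicate 3. As deposited Epcam was lower in the DEN+CCl4 livers (0.11, 0.10 and 0 FPKM, against 0.22, 0.21 and 0.17 FPKM in controls). Krt19, Krt7, Sox9 and Spp1 overlapped between groups as deposited. The 4 T and NK cell markers (1.25 to 1.57 against 1.94 to 8.14 FPKM) and the 3 B cell markers (5.59 to 7.12 against 14.6 to 23.3 FPKM) did not overlap between groups. Of the T and NK list, Nkg7 and Cd8a were higher without overlap as deposited, while Cd3e and Cd4 overlapped. Only Nkg7 of that list averaged 1 FPKM or more. In the B cell list only Ighm was higher after scaling (log2 difference 1.71), with Cd79a at -0.10 and Ms4a1 at 0 in at least 1 library, and the summed list overlapped as deposited. The 4 cycling cell markers did not overlap on either scale (0.10 to 0.20 against 0.53 to 0.83 FPKM as deposited), with Ccnb1 at 0 in at least 1 library. The 3 neutrophil markers (1.46 to 4.78 against 3.99 to 63.4 FPKM), the 6 macrophage markers (25.4 to 74.6 against 18.2 to 60.8 FPKM) and the 5 endothelial markers (7.31 to 14.5 against 11.6 to 16.8 FPKM) overlapped as sums. Lyve1 of the endothelial list was higher as deposited (0.76, 1.65 and 1.06 FPKM, against 0.17, 0.30 and 0.12 FPKM in controls). Pecam1 was higher without overlap after scaling only (log2 difference 0.71). Stab2 and Clec4g overlapped on both scales, and Kdr overlapped as deposited. Of the markers of all lists 1 passed limma's test as deposited: S100a8 of the neutrophil list rose by 1.63 on the log2 scale (limma adjusted p = 0.0336), though not after scaling (adjusted p = 0.462). The part of such cells in the cycle genes' values was not tested.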

How the data were processed

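FPKM values were deposited by the authors in 1 table with 2 decimals and 1 column per library, per the file headers. HISAT, StringTie and GRCm38 were used, per the submitters' processing notes; their versions, annotation and strand setting were not given in the sources used here. Per the labels' protocols, 5 ug of total RNA (RIN over 7) entered poly(A) selection. FPKM is relative to the library's total, so a larger share of mitochondrial RNA leaves a smaller share to other genes. The median tested gene did not follow that share across all libraries. It was at 3.43 FPKM in control replicate 1 (38.1% mitochondrial RNA and copies) and at 3.54 FPKM in control replicate 2 (62.1%). The cause of the low values in DEN+CCl4 replicate 3 was not tested.

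The 8528 genes averaging 1 FPKM or more were tested on log2(FPKM + 1) with limma 3.58.1 in R 4.3.3 (empirical Bayes with trend, two-sided, no covariates), with Benjamini-Hochberg adjustment over all of them at 0.05. Fold changes on this scale understate changes of low genes. Single genes and ratios also had exact two-sided permutation tests (scipy 1.17.1, Python 3.11.15). Simulated data for this comparison had 8528 genes with their means and spread after median-ratio scaling. There the test found 71% of the genes shifted by 2 on the log2(FPKM + 1) scale and 86% of those shifted by 4, beside 13 false calls. Noise was drawn independently for each gene with the same spread in both groups, and values under 0 were set to 0. The differences of the cycle genes were smaller than either shift, so these rates do not cover them. Rates on values as deposited, where the cycle genes had larger standard errors, were not simulated.

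Gene positions came from GENCODE M21 on GRCm38. Nuclear copies of mitochondrial genes, sought among genes reaching 10 FPKM, had at least 50% of their 31-base words in mitochondrial transcripts. The members, lists and tests were chosen with earlier results of these data known. The text names the 9 members, Idh1, Mdh1, from each pathway list up to 4 called genes and, with fewer than 2 called, the 2 with the highest mean, and the 5 genes of most similar profile, leaving out predicted and clone-named genes. Slc25a13, Nedd8, Aco1, S100a8 and the other markers were named outside this rule, and 1 gene that it names is not reported here. The alternatives tried are listed with their effects in the closing section.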

Additional observations from a re-analysis of the deposited data

How the results depend on the processing

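The calls and medians of the 9 genes and the log2 fold change of each member and each gene named by rule were recomputed with median-ratio scaling, pseudocounts of 0.1 or 0.01, a filter at 5 FPKM or none, TPM, quantile normalization, leaving out mitochondrial genes, limma without trend, with array weights and with a replicate block, and leaving out each library, with and without median-ratio scaling. The ratios were recomputed with the pseudocounts and without each library only, and the list medians, marker sums, percentiles, Slc25a13 and the markers named singly were given as deposited or scaled only. Added after the data were seen were leaving out mitochondrial genes with their nuclear copies, and the block together with median-ratio scaling. In every setting, 0 of the 9 genes were called. The filter at 5 FPKM removes Idh3a and Dlst. The median log2 fold change of the 9 genes was negative in all of them, from -1.38 without DEN+CCl4 replicate 1 to -0.14 with array weights. Relative to all tested genes it ran from -0.95 to -0.15. Cs, Idh3a, Idh3g, Idh2, Ogdh and Mdh2 kept a negative sign in all, with limma adjusted p for Idh2 between 0.0881 and 1.00.

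Other cycle genes changed sign. Dlst was at 0.28 with median-ratio scaling (0.28 also with the block), 0.19 with quantile normalization, 0.084 without mitochondrial genes and 0.27 without these and their copies. It ran from -0.24 to 0.18 when single libraries were left out. After scaling it was 0.14, 0.37 and 0.33 without control replicates 1, 2 and 3 and 0.45, 0.32 and 0.071 without DEN+CCl4 replicates 1, 2 and 3. Fh1 was at 0.34 with array weights. After scaling it was 0.0092 without control replicate 1 and 0.24 without DEN+CCl4 replicate 2. When libraries were left out as deposited, Fh1 ran from -1.38 to -0.14 and Idh3b from -1.31 to 0.088. Hnf4a was at 0.23 with median-ratio scaling (0.23 also with the block), 0.54 with quantile normalization, 0.26 without mitochondrial genes and their copies and 0.24 with array weights, and ran from -0.67 to 0.52 when libraries were left out. After scaling it was 0.022, 0.37 and 0.31 without the 3 controls in turn and 0.20, 0.13 and 0.37 without the DEN+CCl4 libraries in turn. Slc25a1 was at 0.11 and Lonp1 at 0.14 with quantile normalization. After scaling Lonp1 was at 0.0019 without control replicate 3 and 0.10 without DEN+CCl4 replicate 2. When libraries were left out as deposited, Pdhb ran from -0.99 to 0.0071. Asl passed in 1 alternative, with median-ratio scaling and without DEN+CCl4 replicate 1 (-2.23, limma adjusted p = 0.0192). The cause of these changes was not tested.

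Of the log2 ratios, Idh3b/Idh3a was 0.050 and 0.11 with pseudocounts of 0.1 and 0.01, Idh3g/Idh3a 0.023 and 0.086, Mdh2/Cs 0.044 and 0.061, and Ogdh/Cs 0.054 and 0.067, where the pseudocount of 1 gave -0.23, -0.25, -0.070 and -0.029. When single libraries were left out, Idh3b/Idh3a ran from -0.57 to 0.29, Idh3g/Idh3a from -0.41 to -0.0062, Idh3g/Idh3b from -0.30 to 0.16, Mdh2/Cs from -0.46 to 0.21, Ogdh/Cs from -0.22 to 0.22 and Idh2/Idh1 from -0.18 to 0.16. 

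With the replicate block 0 of the 9 genes were called, their median stayed at -0.84, and 62 tested genes were higher and 32 lower, against 71 and 55 without it. The replicate number is not explained. Same-number deviations from the group means correlated at 0.072, 0.42 and -0.15 over genes for replicates 1, 2 and 3 (0.027, 0.49 and -0.070 scaled). Only replicate 2 correlated best with its own number. Over all tested genes the count of calls rested on the setting: 0 after median-ratio scaling (468 and 446 in the 2 directions before adjustment at 0.05), 0 without DEN+CCl4 replicate 3 (522 and 139) and, leaving out DEN+CCl4 replicate 1, 109 higher with 270 lower (294 with 363 after scaling). It was also 0 with quantile normalization, without a filter, without trend, without mitochondrial genes and their copies, and with scaling under the block or without any other single library. It was 6 and 3 with a pseudocount of 0.1, 4 and 0 with 0.01, 14 and 53 with the filter at 5 FPKM, 31 and 27 with TPM, 6 and 3 without mitochondrial genes and 287 and 134 with array weights. It was 13 with 10 when control replicate 1 was left out, 8 with 6 for replicate 2, 10 with 9 for replicate 3, and 38 with 15 without DEN+CCl4 replicate 2. Without counts, depth limits cannot be stated.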
